A study of Homo sapiens with 33 samples.

Results

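The MYC, MAX and MXD network is a small family of transcription factors, most competing for a shared partner, MAX, and a shared DNA sequence. Its members were followed in Karpas422, an established line of human diffuse large B cell lymphoma that the series title calls EZH2 mutant, during treatment with EED226, a compound that inhibits the histone methylating complex PRC2 through its subunit EED. The members were the 9 genes MYC, MAX, MXD1, MXD3, MXD4, MXI1, MNT, MLX and MGA, taken with every probe set that the platform annotation gives to them. That gave 23 probe sets naming 1 gene alone, of 54613 tested: 6 of MLX, 5 of MAX, 4 of MGA, 3 of MXD1, 2 of MNT and 1 each of MYC, MXI1 and MXD3. MXD4 had 0 such probe sets. Its 3 probe sets also carry the symbol MIR4800, a microRNA gene that lies within the MXD4 interval in RefSeq, so they are described apart and in no count of the 23.

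RNA was measured on 33 Affymetrix arrays in 11 groups of 3. They were cells at 0 h, for which the labels state no treatment, and cells given DMSO, the solvent, or EED226 at 5 µM for 8 h or for 1, 2, 3 or 6 days. All groups are 1 cell line grown in RPMI-1640 with serum, and the design text calls the replicates biological. That text speaks of an EZH2 inhibitor, the protocol also names the compound EI1, and groups here follow the titles, which name EED226. A difference is EED226 minus DMSO on the log2 scale, and it passed the test where the adjusted p over all probe sets was under 0.05.

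MYC pairs with MAX, and the pair binds the E-box CACGTG and activates genes of ribosome production, nucleotide synthesis and cell growth. MXD1, MXI1, MXD3, MXD4 and MNT pair with the same MAX, bind the same sequence and recruit SIN3 and histone deacetylases, so they repress what MYC activates. MLX is a MAX-like partner of the glucose-sensing factors MondoA and ChREBP and of some MXD proteins, and MGA pairs with MAX inside a variant Polycomb repressive complex of the PRC1 type. In B cells MYC is switched on for short periods in the germinal centre, and its deregulation is frequent in aggressive lymphoma.

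The E-box stands in the promoter of some of the network's own genes, and the windows that hold it are shown. They belong to MLX, MNT and MXD4, which have probe sets that differed with EED226 at day 6. MNT did so in the lower direction and on its dimmer probe set alone. RefSeq promoter windows on GRCh38.p14 were matched by symbol for 8 of the 9 genes, not for MYC, and the 250 bases before each annotated start were searched for CACGTG, which reads the same on both strands. It was present in 3 of 13 windows, 1 each of MXD4, MNT and MLX, and in 6.34% of all 35116 windows of that length. The windows of MAX, MXD1 and MXI1 do not hold it, and these genes also have probe sets that differed at day 6. Capitals mark the E-box, whose first base lies 238 bases before the start in MXD4, 193 in MNT and 50 in MLX.
MXD4, chr4:2262110-2262359, minus strand: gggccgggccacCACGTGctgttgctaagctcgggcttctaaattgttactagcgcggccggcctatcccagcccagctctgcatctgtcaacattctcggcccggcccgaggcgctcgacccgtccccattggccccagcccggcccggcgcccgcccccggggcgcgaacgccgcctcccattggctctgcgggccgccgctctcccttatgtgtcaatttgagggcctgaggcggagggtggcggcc
MNT, chr17:2401061-2401310, minus strand: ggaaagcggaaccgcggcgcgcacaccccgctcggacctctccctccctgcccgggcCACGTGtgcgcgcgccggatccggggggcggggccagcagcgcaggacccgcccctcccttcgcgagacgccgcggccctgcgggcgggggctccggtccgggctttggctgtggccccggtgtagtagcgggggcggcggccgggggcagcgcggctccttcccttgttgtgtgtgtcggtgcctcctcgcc
MLX, chr17:42566850-42567099, plus strand: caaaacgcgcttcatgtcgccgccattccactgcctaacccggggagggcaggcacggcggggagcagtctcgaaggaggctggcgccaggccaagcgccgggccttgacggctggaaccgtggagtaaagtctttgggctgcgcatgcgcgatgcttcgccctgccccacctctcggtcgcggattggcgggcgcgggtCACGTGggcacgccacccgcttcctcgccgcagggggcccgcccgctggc

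MXI1 has 3 annotated starts, and its windows are shown because its probe set had the largest difference of the 23 and cannot tell the starts apart. None of its windows holds CACGTG. Capitals mark the GC box GGGCGG, the site of SP1-type factors, or its reverse complement CCGCCC. The windows hold 1, 3 and 4 matches in the order printed, matches may overlap, and 42.6% of all windows hold at least 1. A match is a description of the letters and shows no binding.
MXI1 start 1, chr10:110207355-110207604, plus strand: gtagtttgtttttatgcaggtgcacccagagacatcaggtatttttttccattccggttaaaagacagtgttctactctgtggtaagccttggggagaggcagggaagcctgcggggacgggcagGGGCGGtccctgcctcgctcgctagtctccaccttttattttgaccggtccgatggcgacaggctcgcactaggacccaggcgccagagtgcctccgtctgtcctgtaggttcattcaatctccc
MXI1 start 2, chr10:110209981-110210230, plus strand: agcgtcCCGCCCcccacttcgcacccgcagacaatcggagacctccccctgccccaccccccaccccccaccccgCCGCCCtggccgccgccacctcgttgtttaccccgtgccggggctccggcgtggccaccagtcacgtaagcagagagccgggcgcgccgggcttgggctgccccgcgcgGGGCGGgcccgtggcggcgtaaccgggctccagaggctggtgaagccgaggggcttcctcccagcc
MXI1 start 3, chr10:110225746-110225995, plus strand: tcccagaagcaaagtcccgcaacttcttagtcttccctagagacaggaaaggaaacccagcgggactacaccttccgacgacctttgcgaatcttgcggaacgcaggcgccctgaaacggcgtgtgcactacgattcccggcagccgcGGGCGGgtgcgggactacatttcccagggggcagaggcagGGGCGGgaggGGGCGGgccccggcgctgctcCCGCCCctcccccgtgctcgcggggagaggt

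Of the 23 probe sets, 20 had a mean above the highest array median of 4.18, and the 3 others were 1564640_at of MGA, 231401_s_at of MLX and 206877_at of MXD1. One array stood apart: DMSO day 6 replicate 3 had the lowest correlation with its group (0.986, against 0.994 or more between the arrays of every other group) and the lowest upper quartile (6.10, against 6.47 to 6.74 on the others). With EED226 at day 6 the excess of 3' over 5' signal, a measure of RNA integrity, was 3.50 to 4.14 for the ACTB control probe sets against 2.87 to 3.29 in DMSO, and 0.52 to 0.74 against 0.24 to 0.29 for GAPDH. All 7 measured B cell markers lay above the array medians in every group, and the level of the B cell list (the log2 of its genes' mean on the linear scale, which the brightest genes dominate) was 11.25 to 11.38 on the EED226 day 6 arrays against 10.74 to 10.99 in DMSO. The plasma cell list stood at 8.52 to 8.89 against 6.94 to 7.26, which JCHAIN carried alone (10.91 against 6.13). PRDM1 stood at 5.49 against 5.04, while SDC1 (5.83 against 7.54), IRF4 (3.91 against 4.42), XBP1 (7.57 against 7.64) and TNFRSF17 (8.33 against 8.39) stood lower with EED226. The T and NK cell list stood at 7.36 to 7.50 against 7.76 to 8.03, with CD3D and CD3G well above the medians and 4 of 7 genes, CD2 among them, below. The myeloid list stood at 3.85 to 4.06 against 3.43 to 3.58, which LYZ carried alone (5.50 against 3.22). The other 5 genes were lower with EED226, and CD14 and MPO lay below the array medians throughout. The part of these shifts in the results below was not tested, except through the fits named beside a result.

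Members that differed were few until the last time. At 8 h, 0 of 23 probe sets passed, as did 0% of all probe sets, and 0 of 23 had an unadjusted p under 0.05 against 2.36% of all. At day 1 it was 0 of 23 against 0.236% of all, with 1 of 23 at an unadjusted p under 0.05 against 5.54% of all. At day 2 it was 1 of 23 against 4.57%, and at day 3 it was 2 of 23 against 14.5%. At day 6 11 of 23 passed against 40.8% of all probe sets. Of these 11, 8 were higher and 3 lower, against 20.2% higher and 20.6% lower over all. At 8 h the values of the groups did not overlap for 0 member probe sets in the higher and 3 in the lower direction, against 2.76% and 3.86% of all probe sets. They did not overlap for 1 and 2 at day 1, against 6.14% and 5.41%, and for 2 and 2 at day 2, against 10.8% and 13.2%. They did not overlap for 2 and 5 at day 3, against 13.3% and 17%, and for 9 and 2 at day 6, against 20.6% and 23.1%. The median difference of the 23 was 0.15 at day 6, and that of all probe sets was -0.08. The count called in all lay near the share of the whole array. Among the members more of the calls were in the higher direction than over all probe sets, and that difference was not tested. The 8 higher calls came from probe sets of MXI1, MAX, MXD1 and MLX alone. Without DMSO day 6 replicate 3, 9 of 23 passed, 6 higher and 3 lower, against 35.1% of all. With the GAPDH 3' minus 5' difference in the fit, a choice made after seeing the data, 4 of 23 passed at day 6, against 14.7% of all, namely MYC, MXI1 and the brightest probe sets of MAX and MLX. With only the 6 arrays of day 6, 5 of 23 passed, against 24.9%, namely these 4 and 226275_at of MXD1.

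**Figure D1:**
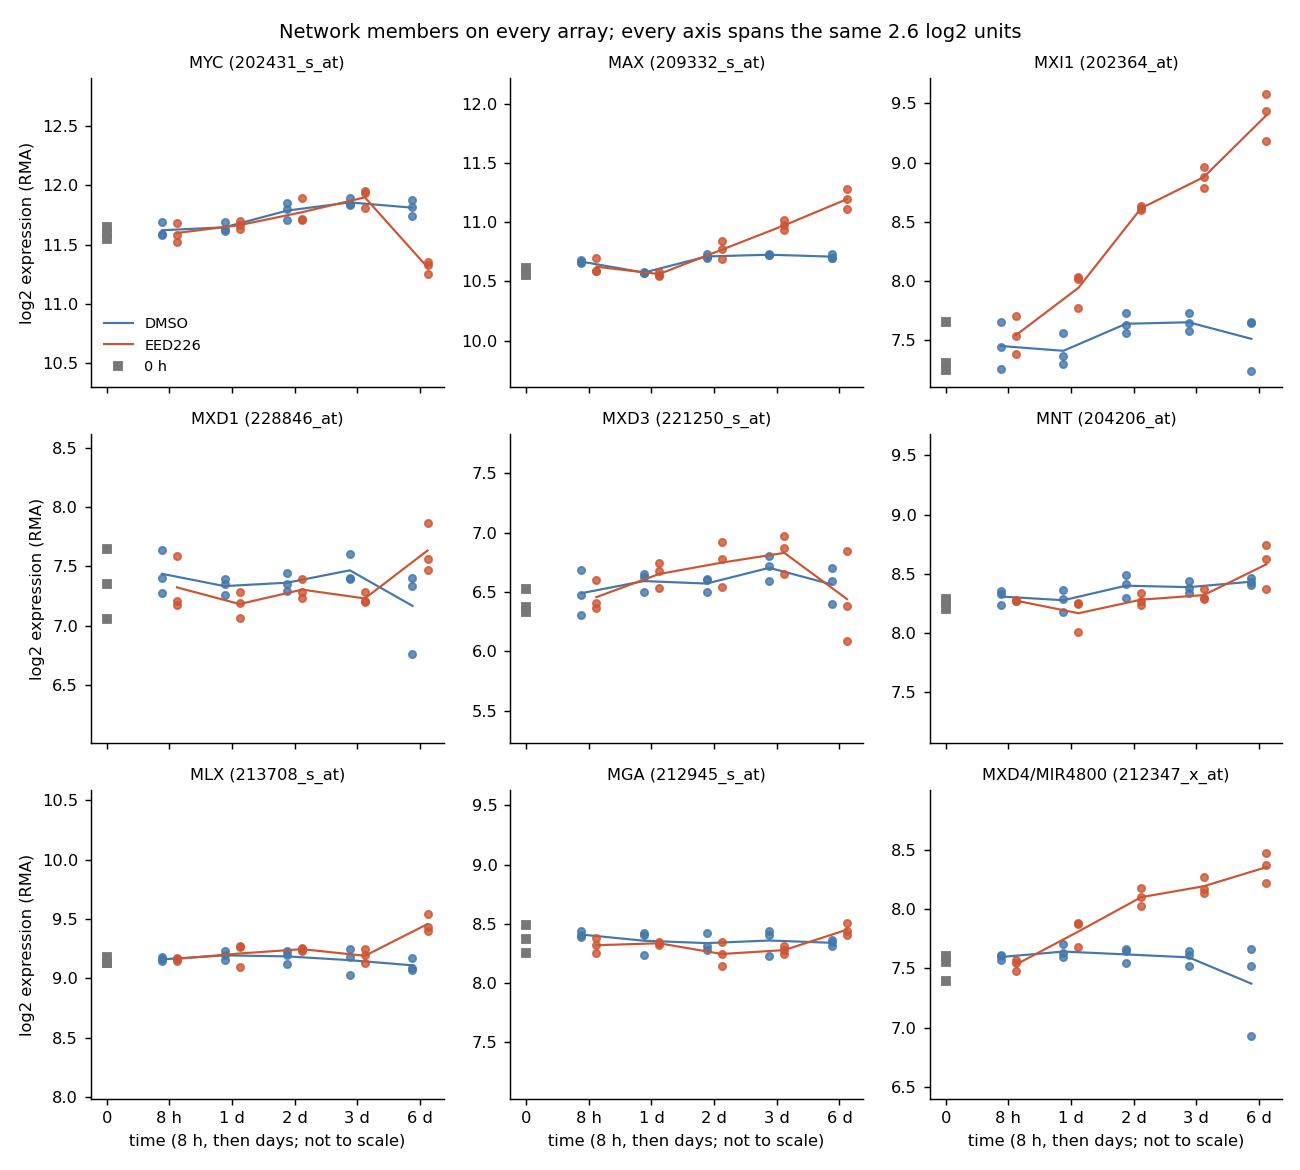
The log2 expression (RMA) of the brightest probe set of each gene, and of 212347_x_at for MXD4/MIR4800, is plotted against time, with 1 point per array, lines through the group means of DMSO (blue) and EED226 (orange), and squares for 0 h. MXI1 separates from day 1 and reaches 9.40 in EED226 at day 6, MYC stays together with DMSO through day 3 and lies at 11.31 at day 6, and the DMSO day 6 array with low MXD1 and MXD4/MIR4800 is replicate 3.

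MYC, the activator of the network, did not differ through day 3 and was lower at day 6. On the 0 h arrays its probe set 202431_s_at stood at 11.59, 11.65 and 11.55 log2. In DMSO it stood at 11.59, 11.69 and 11.59 at 8 h, 11.63, 11.62 and 11.69 at day 1, 11.85, 11.80 and 11.71 at day 2, 11.89, 11.84 and 11.83 at day 3, and 11.88, 11.82 and 11.74 at day 6. In EED226 it stood at 11.59, 11.68 and 11.53 at 8 h, 11.63, 11.66 and 11.70 at day 1, 11.90, 11.72 and 11.70 at day 2, and 11.81, 11.93 and 11.96 at day 3. The groups overlapped at each of these times. At day 6 the EED226 arrays read 11.25, 11.33 and 11.35, below every other array of the series.

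The MYC difference at day 6 was -0.50 ± 0.07 (SE), which is 1.42-fold lower, with a limma adjusted p of 7.60e-07 and a 95% confidence interval of -0.65 to -0.36. At day 3 the difference was 0.04, with an interval of -0.10 to 0.19, and the change between these times passed the test (-0.55 ± 0.10, adjusted p = 0.000187). With the GAPDH covariate the value at day 6 was -0.57 with an adjusted p of 0.0226. In these bulk samples, fewer cells of a kind and less RNA per cell cannot be told apart. Ordered by group mean, MYC was highest in EED226 at day 3 (11.90 ± 0.08, SD, n = 3) and DMSO at day 3 (11.86 ± 0.03), which did not differ beyond their spread. DMSO at day 6 (11.81 ± 0.07) and day 2 (11.79 ± 0.07) came next, within their spread of each other, then EED226 at day 2 (11.77 ± 0.11). The groups at 0 h, 8 h and day 1 lay together between 11.59 and 11.67 by group mean, and EED226 at day 6 (11.31 ± 0.05) stood alone at the bottom.

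The rise of MYC in the solvent alone was small. DMSO minus 0 h was 0.26 ± 0.07 at day 3, the single probe set of the 23 that passed in that comparison, where 1.65% of all probe sets passed. Its adjusted p was 0.0491, and the call was lost when any 1 of the 6 arrays compared was left out (0.24 to 0.29). At day 6 DMSO minus 0 h was 0.22 for MYC with an adjusted p of 0.158. By limma no member probe set passed against 0 h in DMSO at 8 h or day 1, 2 or 6, where 0%, 0.0916%, 0.419% and 0.795% of all probe sets did. Of the 23, 1, 0, 3 and 6 had an unadjusted p under 0.05 at these times, against 2.87%, 6.22%, 7.75% and 12.3% of all.

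MAX, the shared partner, was higher on its brightest probe set. On 209332_s_at the DMSO arrays read 10.72, 10.73 and 10.72 at day 3 and 10.70, 10.70 and 10.73 at day 6. The EED226 arrays read 10.97, 10.93 and 11.01 at day 3 and 11.28, 11.11 and 11.20 at day 6. The groups did not overlap at either time. The difference was 0.25 ± 0.06 at day 3 (limma adjusted p = 0.00392), which did not pass when only the 6 arrays of that time were fitted (adjusted p = 0.0739), and 0.48 ± 0.06 at day 6 (adjusted p = 1.09e-07). At 8 h and at days 1 and 2 it lay between -0.04 and 0.06.

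The other probe sets of MAX did not all follow. At day 3 214108_at and 208403_x_at stood at -0.24 and -0.11, with the EED226 arrays below the DMSO arrays. At that time 209331_s_at and 210734_x_at stood at 0.004 and 0.05, and none of these probe sets passed. At day 6 209331_s_at was higher by 0.22 ± 0.08 (adjusted p = 0.0266), and the call was lost without any of 3 arrays: DMSO replicate 3 (0.16), EED226 replicate 1 or EED226 replicate 2. The probe set 214108_at was lower, -0.46 ± 0.15 (adjusted p = 0.0138). Its DMSO arrays read 7.04, 7.08 and 6.14 and its EED226 arrays 6.27, 6.33 and 6.26, so that DMSO replicate 3 lay below all of the EED226 arrays. Without that array the value was -0.77, and without DMSO replicate 1 or 2 the call was lost. The remaining 210734_x_at and 208403_x_at differed by 0.07 and 0.10 and did not pass, and without DMSO replicate 3 they stood at -0.24 and -0.15, which did not pass either. Names ending in _x_at mark probe sets whose probes can match other transcripts, and _s_at those that match several transcripts alike.

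MXI1, a repressor partner of MAX, had the largest and earliest difference of the 23 probe sets. On 202364_at the 0 h arrays read 7.25, 7.65 and 7.31 log2. DMSO stood at 7.44, 7.65 and 7.26 at 8 h, 7.37, 7.56 and 7.30 at day 1, 7.73, 7.63 and 7.56 at day 2, 7.58, 7.73 and 7.65 at day 3, and 7.65, 7.65 and 7.24 at day 6. EED226 stood at 7.54, 7.70 and 7.39 at 8 h, 8.02, 8.04 and 7.77 at day 1, 8.61, 8.63 and 8.60 at day 2, 8.79, 8.88 and 8.96 at day 3, and 9.44, 9.58 and 9.18 at day 6. The groups overlapped at 8 h and did not overlap from day 1 on, and each EED226 group from day 1 stood wholly above the EED226 group before it.

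The MXI1 difference was 0.09 ± 0.13 (SE) at 8 h and 0.53 ± 0.13 at day 1, where its limma adjusted p was 0.0730. Same-numbered arrays deviated together at day 1, and with the replicate number as a block within each time the adjusted p was 0.00296 and the call was made. Over 1 probe set per gene, its adjusted p at day 1 was 0.0308. It was 0.97 ± 0.13 at day 2 (adjusted p = 5.39e-06), 1.22 ± 0.13 at day 3 (adjusted p = 3.01e-08) and 1.89 ± 0.13 at day 6 (adjusted p = 5.99e-13), which is 3.70-fold. The growth from day 1 to day 6 was 1.35 ± 0.18 (adjusted p = 7.18e-07). With the GAPDH covariate the day 6 value was 1.80 (adjusted p = 0.000143), and without DMSO day 6 replicate 3 it was 1.75 (adjusted p = 8.90e-12). In order of group mean, the EED226 groups at day 6, day 3, day 2 and day 1 came first at 9.40, 8.88, 8.61 and 7.94. The 7 other groups lay between 7.40 and 7.65. Among them DMSO at day 3 (7.65 ± 0.07, SD) stood wholly above DMSO at day 1 (7.41 ± 0.13).

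MXD1, the founding MXD repressor, was higher at day 6 on 2 of 3 probe sets. On 228846_at DMSO read 7.40, 7.33 and 6.76 and EED226 7.86, 7.56 and 7.47, so that replicate 3 was the low DMSO array. The difference was 0.47 ± 0.15 (limma adjusted p = 0.0117), and it did not pass without DMSO replicate 3 (0.26, adjusted p = 0.154) or without EED226 replicate 1. On 226275_at DMSO read 7.02, 6.83 and 6.16 and EED226 7.45, 7.47 and 7.23. That difference was 0.71 ± 0.17 (adjusted p = 0.000906), and without DMSO replicate 3 it was 0.45 (adjusted p = 0.0182). At day 3 both stood at -0.24 and did not pass, with the EED226 arrays below the DMSO arrays, and the change from day 3 to day 6 passed for both (0.70 and 0.95). The dim 206877_at differed by -0.17 at day 6 and did not pass.

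MXD3, an MXD repressor expressed in dividing cells, did not pass at any time. Its only probe set, 221250_s_at, read 6.59, 6.40 and 6.70 in DMSO and 6.38, 6.09 and 6.85 in EED226 at day 6. The difference was -0.12, with a 95% confidence interval of -0.40 to 0.16, and the groups overlapped.

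The 3 probe sets annotated to both MXD4 and MIR4800 were higher with EED226, and lie outside the rule for named genes because of the shared annotation. On 212347_x_at DMSO read 7.65, 7.66 and 7.54 at day 2, 7.61, 7.65 and 7.52 at day 3 and 7.52, 7.67 and 6.93 at day 6. EED226 read 8.10, 8.18 and 8.02, then 8.17, 8.27 and 8.14, then 8.47, 8.22 and 8.37. The groups did not overlap at any of these times. The differences were 0.48 ± 0.12 (limma adjusted p = 0.0103), 0.60 ± 0.12 (adjusted p = 0.000394) and 0.98 ± 0.12 (adjusted p = 4.62e-08). The call at day 2 was lost without DMSO day 2 replicate 3 or EED226 day 2 replicate 2 (adjusted p of at most 0.0649).

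On 210778_s_at the day 6 arrays read 6.22, 6.07 and 5.12 in DMSO and 8.21, 7.81 and 7.43 in EED226, a difference of 2.02 ± 0.23 (adjusted p = 2.51e-08) or 4.04-fold. Without DMSO replicate 3 its difference was 1.67 (adjusted p = 2.40e-07). It differed by 0.59 at day 2 (adjusted p = 0.174, and 0.00229 with the replicate block, which makes the call) and by 0.65 at day 3 (adjusted p = 0.0545). On 212346_s_at the day 6 arrays read 5.90, 5.93 and 5.11 in DMSO and 6.63, 6.92 and 6.89 in EED226, a difference of 1.17 ± 0.14 (adjusted p = 9.16e-08). With the GAPDH covariate it did not pass (0.92, adjusted p = 0.0803). The DMSO replicate 3 array was the lowest on all 3 probe sets. Probe sets for a long transcript do not measure the mature microRNA, and MXD4 and MIR4800 cannot be told apart here.

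**Figure D2:**
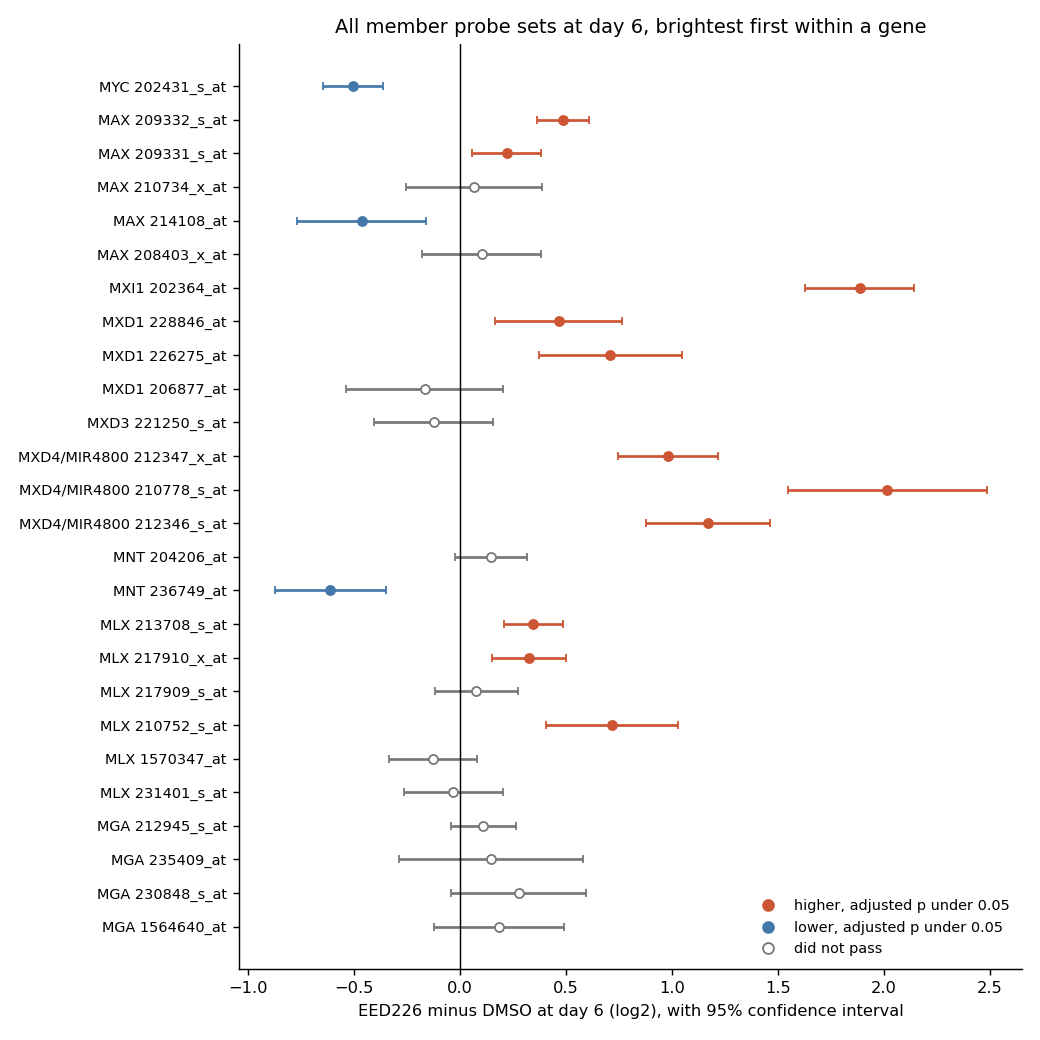
Points give the EED226 minus DMSO difference at day 6 (log2) of all 26 probe sets with the 95% confidence interval from limma, filled where the adjusted p was under 0.05 (orange higher, blue lower) and ordered by gene and brightness. MXI1 at 1.89 and the MXD4/MIR4800 probe sets at 0.98 to 2.02 lie farthest to the right, and MYC, 214108_at of MAX and 236749_at of MNT lie to the left of 0.

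MNT, the MAX partner that represses MYC targets in most tissues, differed on its dimmer probe set alone. On the brighter 204206_at the day 6 arrays read 8.46, 8.41 and 8.43 in DMSO and 8.62, 8.74 and 8.38 in EED226, and the difference of 0.15 ± 0.08 did not pass (limma adjusted p = 0.161). On 236749_at DMSO read 5.25, 5.11 and 5.82 and EED226 4.73, 4.94 and 4.68, with no overlap. That difference was -0.61 ± 0.13 (adjusted p = 0.000280), and without the high DMSO replicate 3 it was -0.40 (adjusted p = 0.00504). The mean of both probe sets fell by 0.23 (adjusted p = 0.0179), so the direction for MNT depends on the probe set taken.

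MLX was higher on 3 of its 6 probe sets at day 6. On the brightest, 213708_s_at, DMSO read 9.17, 9.09 and 9.07 and EED226 9.54, 9.43 and 9.40, a difference of 0.35 ± 0.07 (limma adjusted p = 0.000103). On 217910_x_at it was 0.33 ± 0.09 (adjusted p = 0.00292). On 210752_s_at DMSO read 5.79, 5.89 and 4.99 and EED226 6.32, 6.19 and 6.32, a difference of 0.72 ± 0.15 (adjusted p = 0.000329). Without DMSO replicate 3 this last value was 0.43 (adjusted p = 0.00484). The groups did not overlap on any of the 3. The others, 217909_s_at, 1570347_at and 231401_s_at, differed by 0.08, -0.12 and -0.03 and did not pass. Before day 6 no MLX probe set passed.

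MGA did not pass on any of its 4 probe sets at any time. On the brightest, 212945_s_at, the day 6 arrays read 8.36, 8.34 and 8.31 in DMSO and 8.44, 8.41 and 8.51 in EED226. The EED226 arrays lay above the DMSO arrays, by 0.11 on average with a 95% confidence interval of -0.04 to 0.26. The 3 others differed by 0.15 to 0.28 at day 6, with overlapping groups. Without DMSO day 6 replicate 3, 235409_at stood at -0.15, 230848_s_at at -0.02 and 1564640_at at 0.21, and none passed. Over all 11 groups the mean of 212945_s_at ranged over 0.205 log2 units, the narrowest range among the genes' brightest probe sets.

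**Figure D3:**
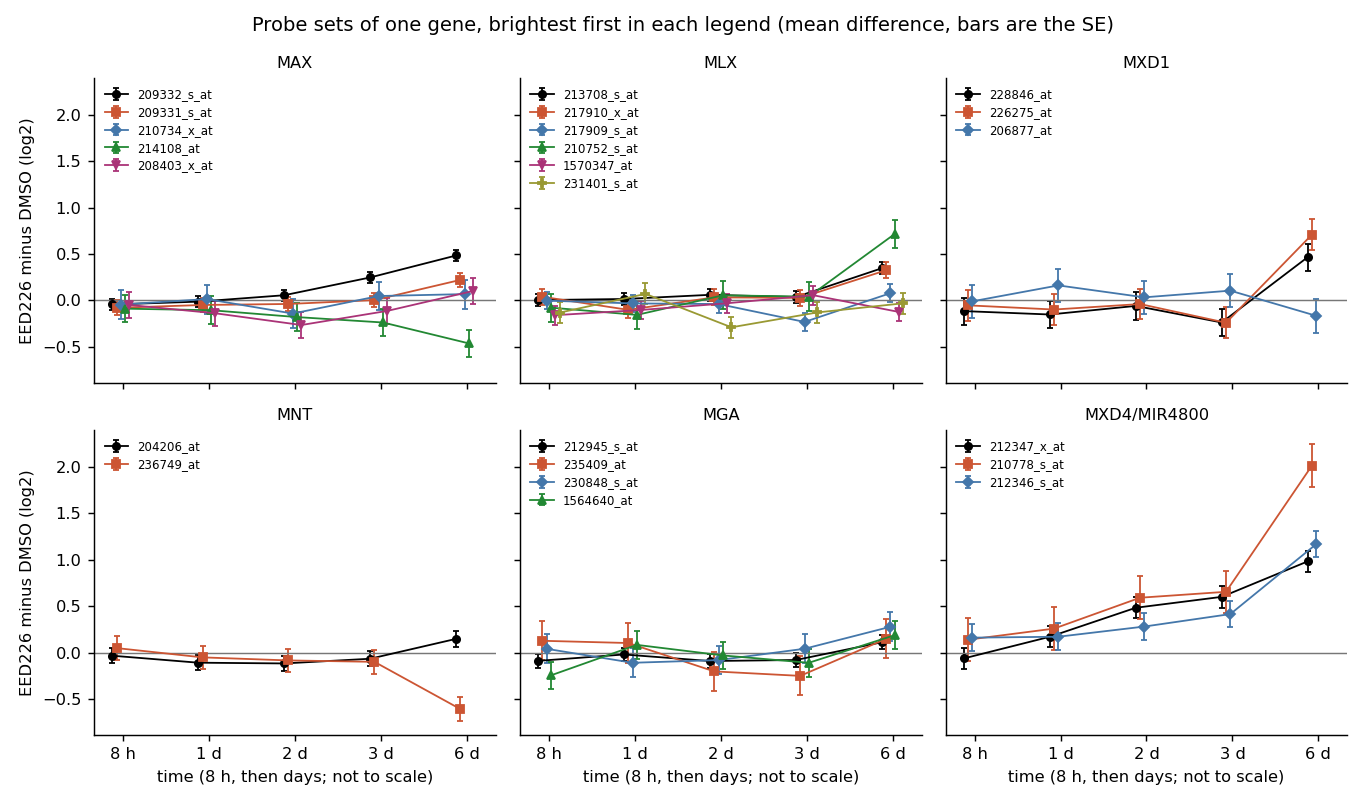
For the 6 genes with several probe sets, the EED226 minus DMSO difference (log2, bars are the SE) is plotted at each time, with the brightest probe set first in each legend. The probe sets of MAX part by day 3 and those of MNT at day 6. Those of MXD4/MIR4800 lie above 0 from day 1, where none passed, and all 3 passed at day 6. Those of MGA lie on both sides of 0, and none passed at any time.

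Across the 5 times together, 7 of 23 member probe sets passed limma's F test, against 30.6% of all probe sets. Between days 3 and 6 the difference itself changed for 7 of 23, against 17.8% of all, and between days 1 and 6 for 9 of 23, against 24.9%. With the GAPDH covariate these 3 counts were 1, 1 and 3, and with only the arrays compared those of the changes were 3 and 5. Without EED226 day 6 replicate 1 the F test gave 4 and the change from day 3 gave 3, and without DMSO day 3 replicate 1 or 2 that change gave 4. With 1 probe set per gene, 5 of the 8 genes passed at day 6, against 51% of all genes: MXI1, MAX, MXD1 and MLX higher and MYC lower.

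The genes most like each member were sought over the 11 group means, among 7920 genes whose group means ranged over at least 0.5. For MXI1 they were MEIS1, YPEL2 and UMODL1, with Pearson's r of 0.998, 0.998 and 0.997. For MYC they were MASTL (0.984), ABLIM1 (0.976) and DNAJC12 (0.939), and for MAX CLCN3 (0.990), RUBCN (0.988) and ALOX5 (0.987). The points are 11 group means of 1 cell line, 5 of them given the same compound, so these values describe likeness of pattern alone. For MLX the nearest were CD52, CLK4 and SLC35B3 (0.982 to 0.986), for MXD3 CREB3L4, RPGRIP1L and MAP1LC3C (0.925 to 0.988), for MXD1 FERRY3, UAP1L1 and ZMYM5 (0.911 to 0.930), for MNT ZNF320, SH3KBP1 and TMEM60 (0.913 to 0.924), and for MGA AURKC, RAB24 and PKD1P1 (0.881 to 0.908). Between members, the group means of MXI1 and MAX had r = 0.892 and those of MXI1 and MYC r = -0.252. With MYC, r was -0.72 for MGA, -0.69 for MLX, -0.62 for MXD1, 0.76 for MXD3 and -0.28 for both MAX and MNT.

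Genes that MYC is known to activate were lower with EED226, and 25 of them had passed at day 3, when the MYC probe set had not. Of 34 measured, 0 passed by limma at day 1, where 1 had an unadjusted p under 0.05. Then 4 were lower at day 2, 25 at day 3 and 32 at day 6, and 0 were higher at any time, against 2.68%, 11.2% and 27.3% of all genes lower at the last 3 times. With each array centred on its median, 1 passed at day 2 in place of 4. Their median difference was -0.16, -0.31 and -0.81 at these times, and that of all genes -0.03, -0.02 and -0.11. At day 3, when the MYC probe set stood at a difference of 0.04, FBL, a methylase of ribosomal RNA, differed by -0.25, PAICS, an enzyme of purine synthesis, by -0.35, and NOP16, a ribosome assembly factor, by -0.45. Each passed, and at day 6 they stood at -1.35, -1.26 and -1.28. Of the 4 probe sets of NOP16 1 went the opposite way at day 3. The standard errors of the listed genes named here and below lay between 0.06 and 0.15. The 2 that did not pass at day 6 were MTHFD2 and CCND2. The list was chosen with results of these data known and holds genes of growth and division that other factors control too.

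Of the genes that MYC is known to repress, 7 were higher and 1 was lower at day 6. Of 14 measured, 2 were higher at day 1, 5 at day 2, 6 at day 3 and 7 at day 6, against 0.834%, 6.76%, 11.7% and 23.7% of all genes. In the lower direction 1 passed at day 3 and 1 at day 6, against 11.2% and 27.3% of all genes. The median at day 6 was 0.43, and that of all genes -0.11. GADD45A, a growth arrest gene, differed by 0.67 at day 1 and 4.46 at day 6. BTG1, an antiproliferative gene of B cells, differed by 0.54 at day 1 and 2.51 at day 6. Of its 3 probe sets 1 went the opposite way at day 6. SESN1, a stress-induced inhibitor of growth signalling, differed by 0.55 at day 2 and 2.12 at day 6. NDRG2 was lower at day 6, and 6 of the 14, CCND1 among them, did not pass.

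**Figure D4:**
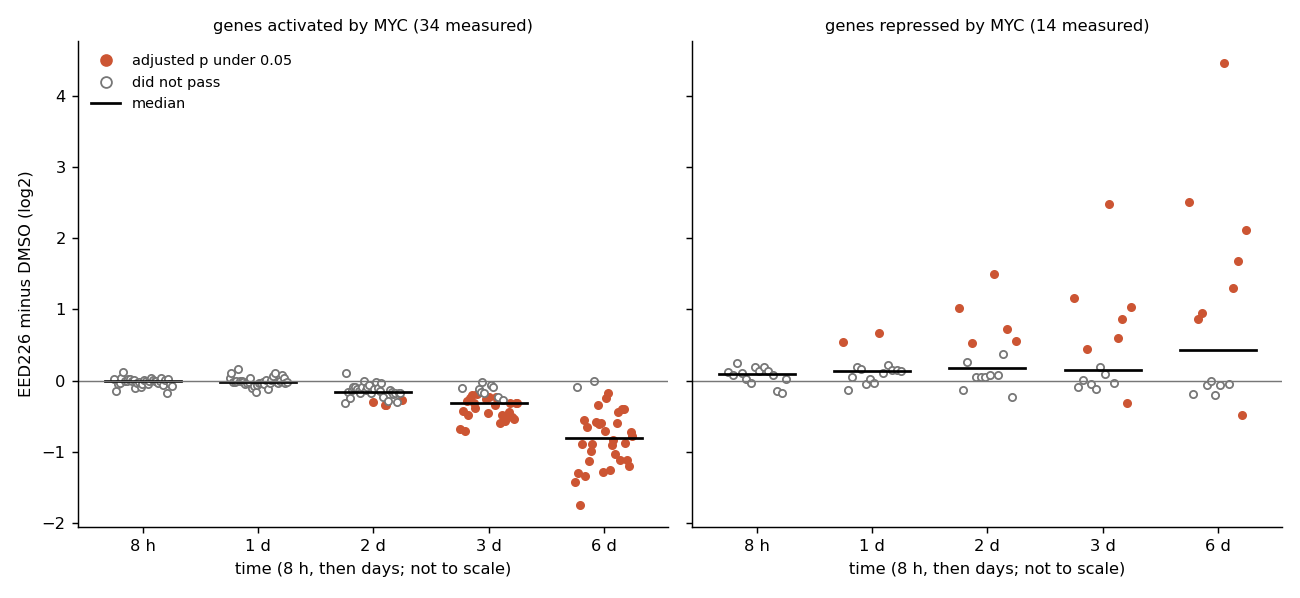
Each point is the EED226 minus DMSO difference (log2) of 1 gene at 1 time, filled where it passed the test, with a bar at the median of the list. The genes activated by MYC move down from day 2 to a median of -0.81 at day 6, and among the genes repressed by MYC 7 lie above 0 and passed at day 6, NDRG2 lies below 0 and passed, and 6 did not pass.

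The partners and regulators of the network differed in both directions at day 6, when 23.7% of all genes were higher and 27.3% lower (median -0.11). Of 14 measured coactivators of MYC, 5 were higher and 6 lower (median -0.02), the lowest being WDR5, an anchor of MYC on chromatin (-1.67), RUVBL2 (-1.04) and RUVBL1 (-0.84), a pair of helicase subunits. Of 14 regulators of MYC protein turnover, 3 were higher and 6 lower (median -0.08). FBXW7, the ubiquitin ligase receptor that marks MYC for destruction, was higher from day 2 (0.38) and stood at 1.31 at day 6. SKP2, another ligase receptor, was lower by day 6 (-1.45), as was AURKA, a mitotic kinase that shields MYC proteins (-1.23). MYC protein was not measured here.

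Of 12 measured corepressors of the MXD proteins and MNT, 3 were higher and 6 lower at day 6 (median -0.22), against the same 23.7% and 27.3% of all genes. SIN3B, a SIN3 scaffold, differed by 0.87, RBBP7 by -0.56 and the deacetylase HDAC2 by -0.50. Of the 3 probe sets of SIN3B 1 went the opposite way. Of 8 partners of MGA in its Polycomb complex, 2 were higher and 5 lower (median -0.38). RYBP was higher at day 1 (0.40), where 1 of its 4 probe sets went the opposite way, and stood at 1.08 at day 6. PCGF6, the subunit that defines the MGA complex, and TFDP1 differed by -0.79 and -0.70 at day 6.

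Of 15 regulators of MYC transcription in B cells, 6 were higher and 8 lower at day 6 (median -0.22), against 23.7% and 27.3% of all genes. FOXO1, a germinal centre factor, was higher from day 2 (0.74) and stood at 1.71 at day 6. STAT3 stood at 1.81 at day 6, and E2F1, a cell cycle factor, at -1.80. Of the 3 probe sets of FOXO1 1 went the opposite way at day 2, and of the 4 of STAT3 1 did so at day 6. BCL6, the germinal centre repressor, was the 1 that did not pass (0.07). Of the 4 other family genes, MLXIP, which encodes MondoA, was higher (0.37) and MYCL lower (-0.35) at day 6, and MYCN and MLXIPL did not pass. The calls of MLXIP and MYCL were lost without DMSO day 6 replicate 3 (0.09 and -0.35, limma adjusted p = 0.376 and 0.0792). MYCL lay below the array medians at day 6, at 3.39 with EED226 against 3.75 in DMSO. MLXIP had an SD of 0.50 in DMSO against 0.10 in EED226, stood at -0.34 at day 3 (adjusted p = 0.0592), and 2 of its 3 other probe sets went the opposite way at day 6. Of 2 targets of MondoA and MLX, TXNIP, an inhibitor of glucose uptake, was higher from day 2 (0.46) and stood at 1.76 at day 6, and ARRDC4 differed by -0.02 at a level below the array medians.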

How the data were processed

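TRIZOL extracts of 33 samples were labelled for Affymetrix arrays by in vitro transcription, per the labels' protocols. The deposited table holds log2 expression values per probe set, and the submitters' processing notes name RMA, a method that subtracts background, equalizes the distributions of the arrays and combines the probes of a set. Its version is not given in the sources used here. The array medians ran from 4.06 to 4.18, and precision is limited by the number of arrays.

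The table held 54675 probe sets. The 62 Affymetrix controls were left out, and 54613 were tested, of which 41091 had 1 gene symbol, 1801 several and 11721 none in the platform annotation. The probe set of a gene with the highest mean level stood for it in the gene lists and in counts over 19775 genes. Tests used limma 3.58.1 in R 4.3.3 (lmFit and eBayes, 1 mean per group, 22 residual degrees of freedom, two-sided), with Benjamini-Hochberg adjustment over all probe sets, or all genes, and a threshold of 0.05. No filter on dim probe sets was used. The comparisons with 0 h share the 0 h arrays, and the changes between times share the day 6 arrays.

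On simulated data of 54613 probe sets with 200 changed, this fit at day 6 recovered 49% of the changes of 0.5 log2 units, 96% of those of 1 and 100% of those of 2, with 8 false calls. Far fewer probe sets were changed there than the 40.8% called on the real arrays at day 6. The simulated noise was also independent between arrays, with no outlying array. These rates therefore do not describe the real comparison at day 6.

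The members and gene lists were chosen with earlier results of these data known. Named were all members, the 3 genes of each list with the smallest p at day 6, all genes of the 2 shortest lists, and the 3 genes most like each member. MTHFD2, CCND2, NDRG2, CCND1, BCL6 and the markers were named after their values were seen. Of the listed genes, 13 had no probe set with 1 symbol and were not measured here. Same-numbered DMSO and EED226 arrays deviated together at 8 h and days 1 and 2 (every correlation of deviations at least 0.141). At day 3 DMSO replicate 2 correlated less with its own number (0.0126) than with another (0.121). At day 6 each DMSO array correlated most with its own number, but weakly (0.158, 0.0683 and 0.165, against at most 0.021 with others). The replicate block is therefore given beside results of the first 3 times where it changes a call, and for days 3 and 6 as counts alone. The alternatives were other scalings, fits, filters, covariates and probe set rules, and leaving out each array in turn.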

Additional observations from a re-analysis of the deposited data

Results flagged for a closer look

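The difference between EED226 and DMSO itself changed between times for 21 pairs of a probe set and a time interval, by limma with adjustment over all probe sets. These describe the same arrays as the report and share the day 6 groups. From day 3 to day 6 the change was -0.55 for MYC (adjusted p = 0.000187), 0.66 for MXI1 (0.00869), 0.70 and 0.95 for the MXD1 probe sets 228846_at and 226275_at (0.0169 and 0.00442), 0.31 and 0.68 for the MLX probe sets 213708_s_at and 210752_s_at (0.0215 and 0.0280) and -0.51 for 236749_at of MNT (0.0498). For the probe sets shared by MXD4 and MIR4800 it was 1.36 on 210778_s_at (0.00330) and 0.75 on 212346_s_at (0.00853).

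From day 1 to day 6 the change was -0.52 for MYC (adjusted p = 0.000140), 1.35 for MXI1 (7.18e-07) and 0.50 for 209332_s_at of MAX (3.60e-05). It was 0.62 and 0.81 for the MXD1 probe sets 228846_at and 226275_at (0.0275 and 0.0100), and 0.33, 0.43 and 0.87 for the MLX probe sets 213708_s_at, 217910_x_at and 210752_s_at (0.00914, 0.00865 and 0.00260). It was -0.56 for 236749_at of MNT (0.0221), and 1.76, 1.00 and 0.81 for the MXD4 and MIR4800 probe sets 210778_s_at, 212346_s_at and 212347_x_at (0.000105, 0.000322 and 0.000299). Each change was refitted without each of its 12 arrays in turn. From day 3, the change was lost in 8 of these fits for 236749_at of MNT (adjusted p of at most 0.204), in 6 for 210752_s_at of MLX (0.106), in 4 for 213708_s_at of MLX (0.0735) and in 2 for 228846_at of MXD1 (0.0724). From day 1, it was lost in 5 for 236749_at (0.0957) and in 4 for 228846_at (0.118). DMSO day 6 replicate 3 was among the arrays whose removal ended the call for each of these except 213708_s_at. Single outlying arrays were not sought by Dixon's gap rule, which was not applied to groups of 3.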

How the results depend on the processing

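At day 1 the count of member probe sets passing was 1, MXI1, in place of 0 with a replicate block within each time, a replicate block over all times, renewed quantile normalization, trended and robust eBayes, array weights or only probe sets above the median level. At day 2 it was 2 in place of 1 with the probe sets annotated to MXD4 and MIR4800. At day 3 it was 1 in place of 2 with only the arrays compared, and 1 gene in place of 2 passed on the average of all probe sets of a gene. At day 6 it was 5 in place of 11 with only the arrays compared and 4 with the GAPDH covariate, which, like the added probe sets, was chosen after seeing the data. For the change from day 3 to day 6 these fits gave 3 and 1 in place of 7, for that from day 1 they gave 5 and 3 in place of 9, and for the F test the GAPDH covariate gave 1 in place of 7. DMSO at day 3 against 0 h gave 0 in place of 1 with only the arrays compared, centring on medians or the GAPDH covariate, and DMSO at day 6 gave 1 in place of 0 with trended and robust eBayes or array weights. Leaving out 1 array gave 0 to 1 at day 1, 1 at day 2, 2 at day 3, 9 to 13 at day 6, 0 to 1 for DMSO at day 3, 3 to 8 and 7 to 9 for the changes to day 6 from days 3 and 1, and 4 to 9 for the F test. The fewest for the change from day 3 (3) and the F test (4) came without EED226 day 6 replicate 1. On that average the direction turned for MAX at day 3 (-0.0099, adjusted p = 0.967) and MNT at day 6 (-0.23, adjusted p = 0.0179). At 8 h and for DMSO at 8 h and days 1 and 2 the count was 0 in every fit run. Pairing by replicate number was mixed at day 3 and weak at day 6. The replicate block within each time gave 3 member probe sets in place of 2 at day 3 and 11 at day 6. Without DMSO day 6 replicate 3, an alternative added for the gene lists after seeing the data, the calls at day 6 were lost for MLXIP, MYCL, SMARCB1 and RING1 among the listed genes. Except where a fit used fewer arrays or probe sets, the cause was not tested. Dim probe sets of MGA, MLX and MXD1 lay at or below the array medians, where signal limits what can be seen.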
